A study of Mus musculus with 8 samples.

Results

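CD94, the NKG2 chains and related lectin-like receptors are surface proteins best known from natural killer (NK) cells, and CD8 T cells carry several of them after activation. The set described here was named by gene symbol and holds 10 of the 22609 genes in the count tables: the CD94 gene Klrd1, its NKG2 partners Klrc1, Klrc2 and Klrc3, the NKG2D gene Klrk1 with its adaptor gene Hcst, the heterodimer genes Klre1, Klri1 and Klri2, and Klrg1. They were chosen by symbol with their counts and CPM in CD11c+ and CD11c- libraries and the ratios of receptor to partner reads already known, so those values, the counts of calls and the counting intervals included, are given as a description and support no conclusion. All 10 had reads, and 6 passed the filter on low counts; Klrc2, Klrc3, Klri1 and Klri2 did not.

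These receptors share a C-type lectin-like outer domain and act through partner chains. CD94 has almost no cytoplasmic tail and reaches the surface with an NKG2 chain. With NKG2A, the product of Klrc1, it forms an inhibitory receptor that recruits the phosphatase SHP-1, whereas with NKG2C or NKG2E, the products of Klrc2 and Klrc3, it forms activating receptors that signal through the adaptor DAP12. In mice the ligand of all these forms is Qa-1, a non-classical class I molecule encoded by H2-T23. NKG2D, the product of Klrk1, is an activating or costimulatory receptor that signals through DAP10, the product of Hcst, and sees stress-induced ligands of the RAE-1, H60 and MULT1 families. In rodents KLRE1 pairs with KLRI1, an inhibitory chain, or KLRI2, an activating chain. KLRG1 is an inhibitory receptor of effector cells that binds cadherins.

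The RNA came from CD8 T cells of livers from male C57BL/6J mice aged 6 weeks, all given an agonist antibody against the costimulatory receptor CD137 on day 0, 3 and 6 and examined on day 8, so the data hold no untreated group. Live leukocytes (CD45+) that were TCRβ+ and CD8α+, lacked CD4, MHCII and NK1.1, and had the surface profile KLRG1+CD127- were sorted into a CD11c+ group (4 libraries) and a CD11c- group (4 libraries). CD11c is an integrin chain found on many myeloid cells and on some activated T cells. The labels number the libraries 1 to 4 in each group without saying that they came from separate mice, so any spread or p-value refers to these samples and may be technical. KLRG1 was part of the gate in both groups, and NK1.1, which marks most NK cells in this strain, was used to leave cells out.

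Libraries held 5090345 to 7093163 gene reads and between 10482 and 12581 detected genes. Levels are given in CPM, reads per 1000000 gene reads after TMM scaling, a correction for differences in library composition. The groups matched their labels at the RNA level, as Itgax, which encodes CD11c, measured 198 to 357 CPM in CD11c+ libraries, against 4.76 to 17.97 CPM in CD11c- libraries. Cd8a measured 1085 to 1237 CPM in CD11c+ libraries, against 1022 to 1231 CPM in CD11c- libraries, and Cd3e, a chain of the T cell receptor complex, measured 888 to 1022 CPM in CD11c+ libraries, against 866 to 1002 CPM in CD11c- libraries.

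Klrd1, Klrc1, Klrk1 and Klre1 were higher in every CD11c+ library than in any CD11c- library, whereas Hcst and Klrg1 overlapped between the groups. Of the 6 tested members, 0 were called by edgeR's quasi-likelihood test at a Benjamini-Hochberg adjusted p under 0.05 over all 10073 tested genes, a threshold that 0.0496% of the tested genes passed in either direction. At an unadjusted p under 0.05 there were 4 of the 6, all higher, beside 2.43% of tested genes that were higher. Klrd1, Klrc1, Klrk1 and Klre1 were called with DESeq2, which called 0.288% of the tested genes, and with limma voom, which called 0.189%. The same 4 were called with no filter on low counts (0.0849% of genes called) and with a replicate block (0.129%). They were also called with the edgeR setting legacy=FALSE (0.109%). So they were without the 3 libraries that had the fewest genes (0.106%), CD11c+ replicates 1 and 2 and CD11c- replicate 1. With RLE factors or scaling by library size alone, 0 members were called. A stricter filter on low counts gave 1, Klre1. Leaving out each library in turn gave 1 without CD11c+ replicate 2 (Klre1) or CD11c- replicate 1 (Klrk1), and 0 otherwise. The 4 non-overlapping members stand beside 1.6% of tested genes that were higher in CD11c+ without overlap. As the members were chosen with this contrast known, nothing is read from these counts. The median log2 fold change of the 6 was 1.41, against 0.01 over all tested genes. In bulk RNA, a smaller number of cells that carry a transcript and less transcript per cell cannot be told apart.

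**Figure D1:**
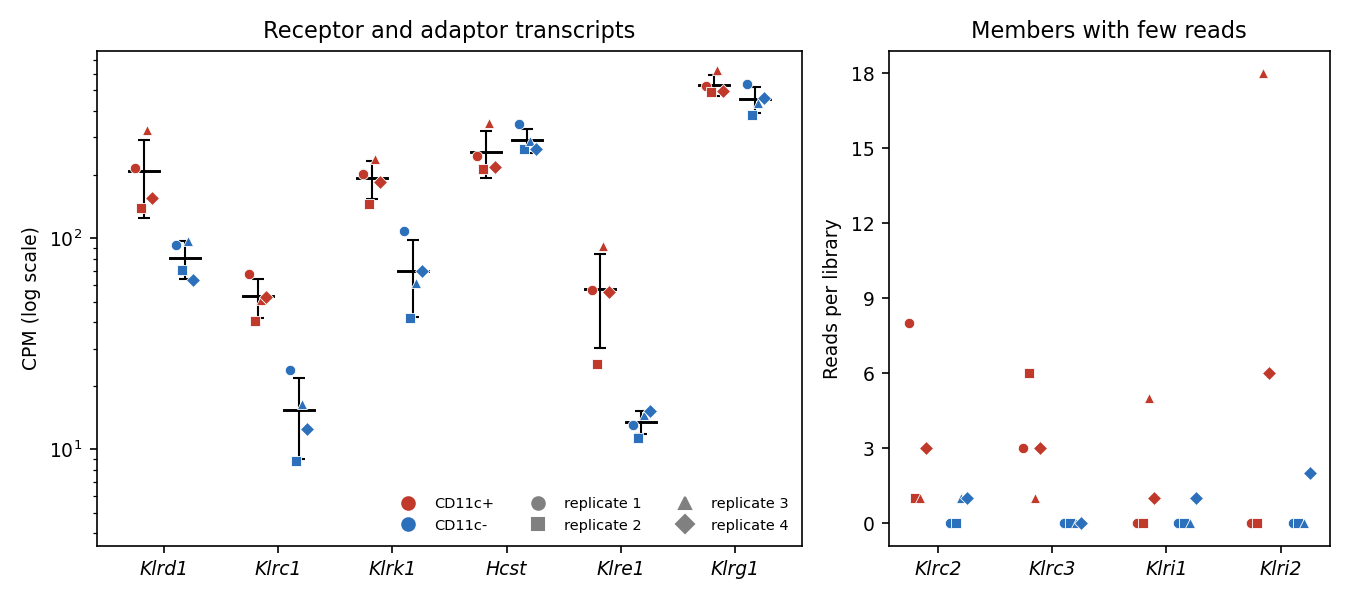
Levels of the receptor set by library. Left: CPM on a log scale for the 6 members above the filter, CD11c+ libraries in red left of CD11c- libraries in blue, with the mean (horizontal line) and SD (bar) of 4 libraries. Right: reads per library, on a linear scale, for the 4 members below the filter. The groups of Klrd1, Klrc1, Klrk1 and Klre1 do not overlap, those of Hcst and Klrg1 do, and no library holds more than 18 reads of a member on the right.

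Klrd1 encodes CD94, the shared chain of all CD94/NKG2 receptors. It measured 214, 139, 324 and 155 CPM in CD11c+ replicates 1 to 4, against 92.3, 70.7, 96.7 and 63.1 CPM in CD11c- replicates 1 to 4. The lowest CD11c+ library lay above the highest CD11c- library, and CD11c+ replicate 3 stood above the other CD11c+ libraries. The means were 208 CPM ± 83.8 in CD11c+ and 80.7 CPM ± 16.3 in CD11c- (SD, n = 4 each), a log2 fold change of 1.37 (SE 0.25). Without CD11c+ replicate 3 the log2 fold change was 1.07.

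Klrc1 encodes NKG2A, the inhibitory partner of CD94. It measured 67.5, 40.7, 51.0 and 52.8 CPM in the CD11c+ libraries, against 23.8, 8.82, 16.4 and 12.5 CPM in the CD11c- libraries. The groups did not overlap, and replicate 1 was the highest library of each. The means were 53.0 CPM ± 11.0 in CD11c+ and 15.4 CPM ± 6.39 in CD11c- (SD, n = 4 each), a log2 fold change of 1.79 (SE 0.31). Unlike Klrd1, Klrc1 was not highest in CD11c+ replicate 3, and without that library its log2 fold change was 1.80.

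Klrc2 and Klrc3, which encode the activating chains NKG2C and NKG2E, were close to the limit of detection. Klrc2 had 8, 1, 1 and 3 reads in the CD11c+ libraries, against 0, 0, 1 and 1 reads in the CD11c- libraries. Pooled over each group, that is 13 reads against 2, a ratio of 6.68 after scaling, with an exact 95% binomial interval from 1.51 to 61.0 that covers counting error only. Most Klrc2 reads came from CD11c+ replicate 1, and the other CD11c+ libraries held 5 together. Klrc3 had 3, 6, 1 and 3 reads in the CD11c+ libraries and 0 in every CD11c- library. Against the limit that a count of 0 allows, 3 reads over the pooled CD11c- group or 0.128 CPM, its CD11c+ level was 4.46-fold higher. That value takes the 13 CD11c+ reads as exact, so it is not a lower bound. By 95% Poisson intervals, for counting error only, pooled Klrc3 was 0.303 to 0.972 CPM in CD11c+, against at most 0.157 CPM in CD11c-. Per 1000 reads of Klrd1, the CD11c+ group had 2.76 reads of each of Klrc2 and Klrc3, against 1.07 reads of Klrc2 and 0 of Klrc3 in the CD11c- group.

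How far the reads can part the NKG2 chains depends on their sequences, shown here because the levels of Klrc1, Klrc2 and Klrc3 rest on it. Reads were 50 bases long, and those that aligned to more than 1 place were not assigned to a gene. Of all 50-base windows of the GENCODE protein-coding transcripts, 38.6% of those of Klrc1, 29.4% of those of Klrc2 and 38.6% of those of Klrc3 also occur in another Klrc gene. Of the Klrc1 windows, 742 occur in Klrc2 and 51 in Klrc3. Windows were matched by their letters, so a place annotated to both genes was not told from separate places with the same letters. The levels of the Klrc genes in CPM are therefore uncertain, to an extent that these shares do not measure. The coding sequences of Klrc2 and Klrc3 were 94.9% identical over their aligned bases, those of Klrc1 and Klrc2 83.1%, and those of Klrc1 and Klrc3 85.6%. An example of a window that no read can place is the same in all 3 genes (Klrc1 coding bases 633 to 682, Klrc2 615 to 664, Klrc3 564 to 613, each on chromosome 6):
Klrc1, Klrc2 and Klrc3: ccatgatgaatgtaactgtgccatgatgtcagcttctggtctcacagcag
Near the start of the coding sequence, which encodes the cytoplasmic tail, Klrc1 differs from the other two genes at 20 of 50 bases. The windows are Klrc1 coding bases 23 to 72 and, for Klrc2 and Klrc3, coding bases 12 to 61, with the bases that differ from the other window in capitals:
Klrc1: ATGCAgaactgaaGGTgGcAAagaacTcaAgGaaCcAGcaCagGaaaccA
Klrc2 and Klrc3: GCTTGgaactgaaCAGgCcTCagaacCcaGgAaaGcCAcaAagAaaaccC
Reads from that stretch tell the inhibitory chain from the activating chains, but do not tell Klrc2 from Klrc3. The transcripts of Klrd1, Klrk1, Hcst, Klre1 and Klrg1 share 0 windows with any other gene.

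Klrk1, the gene of NKG2D, measured 202, 145, 238 and 184 CPM in the CD11c+ libraries, against 108, 41.9, 61.3 and 69.6 CPM in the CD11c- libraries. The groups did not overlap, although CD11c- replicate 1 stood above the other CD11c- libraries. The means were 192 CPM ± 38.7 in CD11c+ and 70.1 CPM ± 27.6 in CD11c- (SD, n = 4 each), a log2 fold change of 1.46 (SE 0.25).

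Hcst encodes DAP10, through which NKG2D signals. It measured 245, 213, 351 and 217 CPM in the CD11c+ libraries, against 346, 265, 289 and 263 CPM in the CD11c- libraries. The groups overlapped, and 3 of the 4 CD11c+ libraries lay below every CD11c- library while replicate 3 lay above them all. The means were 257 CPM ± 64.5 in CD11c+ and 291 CPM ± 38.8 in CD11c- (SD, n = 4 each), a log2 fold change of -0.18 (SE 0.17). Without CD11c+ replicate 3 it was -0.37, and without the 3 libraries in which the fewest genes were detected it was 0.05, of the opposite sign.

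Klre1, the shared chain of the KLRE1 heterodimers, showed the highest log2 fold change of the 6. It measured 56.7, 25.3, 91.4 and 55.3 CPM in the CD11c+ libraries, against 12.997, 11.3, 14.5 and 15.2 CPM in the CD11c- libraries. The CD11c- libraries lay close together, whereas the CD11c+ libraries spread widely between replicates 2 and 3. The means were 57.2 CPM ± 27.02 in CD11c+ and 13.5 CPM ± 1.69 in CD11c- (SD, n = 4 each), a log2 fold change of 2.08 (SE 0.34), and 1.76 without CD11c+ replicate 3.

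The partner chains of KLRE1 were nearly undetected. Klri1, the inhibitory chain, had 0, 0, 5 and 1 reads in the CD11c+ libraries, against 0, 0, 0 and 1 in the CD11c- libraries. Its ratio of 6.17 had an interval from 0.749 to 284 for counting error only, and 5 of its 6 CD11c+ reads came from replicate 3. Klri2, the activating chain, had 0, 0, 18 and 6 reads in the CD11c+ libraries, against 0, 0, 0 and 2 in the CD11c- libraries. Its pooled ratio of 12.3 (interval 3.06 to 108, counting error only) rested on CD11c+ replicate 3, without which the CD11c+ group had 6 reads. Per 1000 reads of Klre1, the CD11c+ group held 4.60 reads of Klri1 and 18.4 of Klri2, against 3.18 of Klri1 and 6.37 of Klri2 in the CD11c- group. Klri1 and Klri2 share 46 windows of 50 bases, 5.83% of those of Klri1.

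Klrg1, a gene of the sort gate, measured 522, 489.6, 623 and 499 CPM in the CD11c+ libraries, against 534, 383, 438 and 462 CPM in the CD11c- libraries. The groups overlapped, with means of 533 CPM ± 61.4 in CD11c+ and 454 CPM ± 62.3 in CD11c- (SD, n = 4 each). The log2 fold change was 0.23 (SE 0.12).

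Levels of different members can be set side by side only per length. Over the windows that belong to a single gene, the mean CPM per kb in CD11c+ libraries was 585 for Hcst, 391 for Klrg1, 206 for Klrd1, 56.2 for Klrk1, 45.9 for Klre1 and 42.5 for Klrc1. In CD11c- libraries the same genes, in that order, had 663, 333, 79.8, 20.5, 10.8 and 12.3 CPM per kb. Hcst, Klrg1 and Klrd1 led in both groups. Klre1 and Klrc1 differed by less than the SD of Klrc1 in both groups, and Klrk1 and Klre1 by less than the SD of Klrk1 in CD11c+ libraries. The scale depends on which transcripts are counted, since with the shortest protein-coding transcript Klrd1 came to 388 and Klrk1 to 198 CPM per kb in CD11c+ libraries, against 150.3 and 72.3 CPM per kb in CD11c- libraries. On that scale Klrc1 came to 84.5 in CD11c+ and 24.5 in CD11c-, while Klre1 stayed at 45.9 and 10.8. The differences of Klre1 from Klrc1, and from Klrk1 in CD11c+, then exceeded the SD (Klrc1 17.6 and 10.2, Klrk1 39.9).

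Ratios of reads within a library show how receptor and partner transcripts moved relative to each other, free of library scaling. They are not corrected for length, so only the comparison between groups can be read from them. Per 100 reads of Hcst, Klrk1 had 82.4, 68.1, 67.8 and 84.8 reads in the CD11c+ libraries, against 31.1, 15.8, 21.2 and 26.4 reads in the CD11c- libraries. The groups did not overlap, with means of 75.8 ± 9.07 in CD11c+ and 23.6 ± 6.60 in CD11c- (SD, n = 4 each), a difference of 1.72 on the log2 scale. The receptor transcript was more abundant relative to its adaptor transcript in every CD11c+ library than in any CD11c- library.

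The ratios to CD94 overlapped between the groups. Per 100 reads of Klrd1, Klrc1 had 31.4, 29.3, 15.7 and 34.0 reads in the CD11c+ libraries, against 25.8, 12.5, 16.9 and 19.8 reads in the CD11c- libraries. CD11c+ replicate 3, the library with most Klrd1, lay among the CD11c- libraries, and the other CD11c+ libraries lay above them all. Per 100 reads of Klrd1, Klre1 had 26.4, 18.2, 28.2 and 35.6 reads in the CD11c+ libraries, against 14.1, 16.0, 14.98 and 24.0 reads in the CD11c- libraries. The lowest CD11c+ library lay below the highest CD11c- library. Klrk1 per 100 reads of Klrd1 had means of 97.7 ± 18.99 in CD11c+ and 87.4 ± 30.3 in CD11c-, and Klrc1 per 100 reads of Klrk1 had means of 27.9 ± 4.93 in CD11c+ and 22.0 ± 3.61 in CD11c- (SD, n = 4 each). Both sets of values overlapped between the groups.

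**Figure D2:**
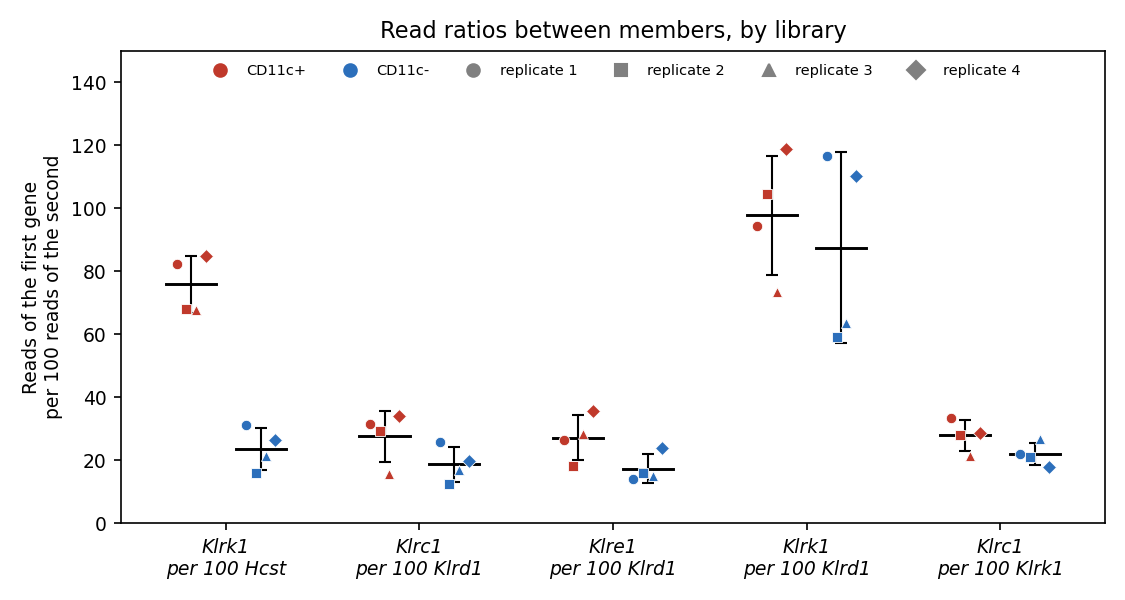
Reads of a member per 100 reads of another member, on a linear scale from 0, for each library, CD11c+ (red) left of CD11c- (blue), with mean and SD of 4 libraries. Klrk1 per 100 Hcst reads lies between 67.8 and 84.8 in CD11c+ libraries and between 15.8 and 31.1 in CD11c- libraries, and the other ratios overlap.

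In the RefSeq annotation, 8 of the members are consecutive protein-coding genes on chromosome 6, in the order Klre1, Klrd1, Klrk1, Klrc3, Klrc2, Klrc1, Klri1 and Klri2. This run holds the 4 members whose groups did not overlap above the filter and the 4 with few reads. Klrg1 lies elsewhere on chromosome 6, and Hcst is on chromosome 7. The genes of this run differed widely in level, from the 206 CPM per kb of Klrd1 to the 0.276 CPM per kb of Klri2 in CD11c+ libraries.

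The promoters of 3 members that were higher in CD11c+ are printed here beside that of Hcst, the adaptor that was not. RefSeq (GRCm38.p6) lists a promoter, 250 bases before to 50 after the start, for 7 of the 10 members, with none for Klrd1, Klri2 and Klrg1. Klre1 and Klrc2 have 2 listed each, and only the first listed for a gene was used. A pair of short motifs of factors active in CD8 T cells were searched on both strands: the RUNX core ACCACA, which reads TGTGGT from the other side, and the T-box core. For the T-box core the letters searched were TCACAC, or else GTGTGA on the opposite strand. They were picked after the sequences had been seen. Capitals mark the matches.
Klrc1, chr6:129678924-129679223, minus strand: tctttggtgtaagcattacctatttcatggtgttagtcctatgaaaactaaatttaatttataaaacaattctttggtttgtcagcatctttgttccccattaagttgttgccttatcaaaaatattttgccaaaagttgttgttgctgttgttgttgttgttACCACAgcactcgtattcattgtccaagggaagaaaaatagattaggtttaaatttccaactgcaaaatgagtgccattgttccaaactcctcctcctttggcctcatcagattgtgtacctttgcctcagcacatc
Klrk1, chr6:129623815-129624114, minus strand: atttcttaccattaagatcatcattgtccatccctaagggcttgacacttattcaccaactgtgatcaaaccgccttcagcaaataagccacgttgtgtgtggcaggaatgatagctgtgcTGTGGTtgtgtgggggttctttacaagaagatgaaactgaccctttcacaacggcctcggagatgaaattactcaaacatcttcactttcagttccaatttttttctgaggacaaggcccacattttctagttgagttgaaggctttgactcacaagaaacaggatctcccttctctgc
Klre1, chr6:129577963-129578262, plus strand: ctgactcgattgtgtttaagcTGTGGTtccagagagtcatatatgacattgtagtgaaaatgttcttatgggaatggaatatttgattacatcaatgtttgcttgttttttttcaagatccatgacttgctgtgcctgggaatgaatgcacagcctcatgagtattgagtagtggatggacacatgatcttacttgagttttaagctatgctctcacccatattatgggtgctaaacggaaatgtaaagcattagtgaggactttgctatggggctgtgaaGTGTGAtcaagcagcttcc
Hcst, chr7:30419805-30420104, minus strand: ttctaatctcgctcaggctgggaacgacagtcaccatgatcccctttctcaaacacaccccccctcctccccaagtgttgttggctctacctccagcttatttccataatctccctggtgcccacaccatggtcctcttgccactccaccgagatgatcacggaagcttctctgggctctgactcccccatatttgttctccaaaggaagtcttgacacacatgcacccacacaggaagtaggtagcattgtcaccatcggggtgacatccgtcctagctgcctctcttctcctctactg
The RUNX core had 1 match in each of Klrc1, Klrk1 and Klre1, 2 in each of Klrc2 and Klrc3, and 0 in Hcst and Klri1. The matches of Klrc2 and Klrc3 lie in a stretch with the same letters in both genes, so they are not separate finds. The RUNX core occurs in 16.9% of 27025 promoters, the first listed for each gene. The T-box core had 1 match, in Klre1, which does not overlap the RUNX match there, and occurs in 14.4% of these promoters. A match describes the letters only and says nothing of binding.

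Genes that work with these receptors were read from lists, all in the same fit across the 10073 genes, and in none of them other than the last list, of IL-15 genes, did DESeq2 or limma voom make a call. The lists were chosen with earlier results of these data known, so their counts are a description. Over all tested genes 0.0496% were called, and at an unadjusted p under 0.05 2.43% were higher and 228 of 10073 lower. Of the 21 tested genes for receptor adaptors and proximal signalling, 0 were called in either direction, with a median log2 fold change of -0.00. At an unadjusted p under 0.05 there was 1, Sh2d1a, the adaptor of SLAM receptors, with a log2 fold change of -0.40 (adjusted p = 0.991). Tyrobp, which encodes the DAP12 that activating CD94/NKG2 receptors need, had 12.1, 4.37, 55.2 and 24.2 CPM in the CD11c+ libraries, against 4.64, 5.46, 18.1 and 17.4 CPM in the CD11c- libraries. Its groups overlapped, and the log2 fold change of 1.07 had an SE of 0.67 (edgeR quasi-likelihood, adjusted p = 0.991). Lck, the kinase that starts T cell receptor signalling, averaged 2064 CPM ± 120.3 in CD11c+ and 2182 CPM ± 169.7 in CD11c- (SD, n = 4 each), with a log2 fold change of -0.08. Lat, its scaffold, and Pik3cd, the PI3-kinase subunit of lymphocytes, had log2 fold changes of -0.00 and -0.22.

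The phosphatases that inhibitory receptors recruit did not pass the test either, with 0 of 3 called. Ptpn6, the gene of SHP-1, averaged 337 CPM ± 29.3 in CD11c+ and 296 CPM ± 25.7 in CD11c- (SD, n = 4 each), a log2 fold change of 0.19 (edgeR quasi-likelihood, adjusted p = 0.991). Ptpn11, the gene of SHP-2, averaged 78.3 CPM ± 5.46 in CD11c+ and 94.9 CPM ± 11.0 in CD11c-, a log2 fold change of -0.28. Inpp5d, the gene of the lipid phosphatase SHIP-1, had a log2 fold change of -0.06.

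The cells also expressed the ligand of CD94/NKG2. H2-T23, which encodes Qa-1, averaged 543 CPM ± 52.8 in CD11c+ and 565 CPM ± 33.8 in CD11c- (SD, n = 4 each), a log2 fold change of -0.06 (SE 0.10). Of the 11 genes for this ligand and its peptide loading, 0 were called, 0 had an unadjusted p under 0.05, and the median log2 fold change was -0.06. B2m, the light chain of class I molecules, averaged 7055 CPM ± 606 in CD11c+ and 7018 CPM ± 517 in CD11c-, and the log2 fold changes of H2-K1 and H2-D1, the classical heavy chains, were -0.07 and -0.10. Reads of class I genes can be shared among near-identical copies, so their absolute levels are uncertain. Of 8 matched NKG2D ligand genes, 7 had 0 reads in every library, and H60b averaged 1.91 CPM ± 0.732 in CD11c+ and 2.15 CPM ± 1.13 in CD11c-. Reads that aligned to more than 1 place were not assigned, so 0 reads do not show that a transcript was absent. Of the cadherin genes that KLRG1 binds, Cdh1 had at most 0.196 CPM, in a CD11c+ library, and the other two had 0 reads.

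Other lectin-like receptors of the same gene complex were measured too. Of 34 matched genes, 15 had 0 reads in every library and 6 passed the filter, of which 0 were called, with a median log2 fold change of -0.11. Here too, unassigned reads with several alignments mean that 0 reads do not show absence of a transcript. Cd69, an activation and retention marker, averaged 105 CPM ± 39.4 in CD11c+ and 109 CPM ± 24.9 in CD11c- (SD, n = 4 each). Clec2d, a lectin-like ligand of NK receptors, averaged 32.5 CPM ± 6.27 in CD11c+ and 37.1 CPM ± 7.62 in CD11c-, and the related Clec2i averaged 23.5 CPM ± 3.68 in CD11c+ and 26.2 CPM ± 10.7 in CD11c-. Of the 6, 5 had a log2 fold change below 0.

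Among NK-type receptors encoded outside the complex, 0 of 13 tested genes were called, with a median log2 fold change of 0.39. At an unadjusted p under 0.05, 2 were higher and 1 was lower in CD11c+. Tigit, an inhibitory receptor, averaged 318 CPM ± 33.8 in CD11c+ and 435 CPM ± 79.9 in CD11c- (SD, n = 4 each), a log2 fold change of -0.45 (edgeR quasi-likelihood, adjusted p = 0.923). Cd226, the activating receptor that shares ligands with it, averaged 119.8 CPM ± 16.2 in CD11c+ and 76.6 CPM ± 13.5 in CD11c-, a log2 fold change of 0.65 (adjusted p = 0.654 in the same test). Lilrb4, an inhibitory receptor, had a log2 fold change of 1.05 (adjusted p = 0.854). None of the 3 passed, and the groups of Tigit and Cd226 did not overlap, as in 1.85% of tested genes that were lower and 1.6% that were higher. The SLAM receptors Slamf7 and Slamf6 had log2 fold changes of 0.18 and -0.29.

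Of 15 genes for the IL-15 receptor, its signalling and transcription factors known to act on these receptors, 1 passed the test, and at an unadjusted p under 0.05 3 were higher and 3 lower. Over all tested genes 0.0496% passed, 2.43% were higher and 228 of 10073 lower at the unadjusted threshold, and 1.6% were higher without overlap. The list was chosen with earlier results of these data known, so its counts and values are a description. Id2, an effector cell regulator, averaged 625 CPM ± 106 in CD11c+ and 315 CPM ± 29.6 in CD11c- (SD, n = 4 each), a log2 fold change of 0.99 (SE 0.13, edgeR quasi-likelihood, adjusted p = 0.023), and was higher in 4 of 4 CD11c+ libraries than in any CD11c- library. Leaving out any of 6 libraries (CD11c+ replicate 1 or 3, or any CD11c- replicate) gave an adjusted p between 0.052 and 0.108. Tbx21, which encodes T-bet, averaged 349 CPM ± 26.3 in CD11c+ and 227 CPM ± 19.03 in CD11c-, a log2 fold change of 0.62 that did not pass in edgeR (adjusted p = 0.085) and passed in DESeq2 (adjusted p = 6.13e-05) and limma voom (adjusted p = 0.0227). DESeq2 also called Zeb2, an effector cell factor with a log2 fold change of 1.42 in edgeR (adjusted p = 0.215). Runx3 averaged 252 CPM ± 22.6 in CD11c+ and 249 CPM ± 21.0 in CD11c-, a log2 fold change of 0.01. Il2rb, the signalling chain shared by the IL-2 and IL-15 receptors, had a log2 fold change of -0.31, Ets1 of -0.36 and Tcf7, a factor of naive and memory T cells, of -1.01 (each adjusted p = 0.945), and Il2rg, the common gamma chain, of 0.04.

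**Figure D3:**
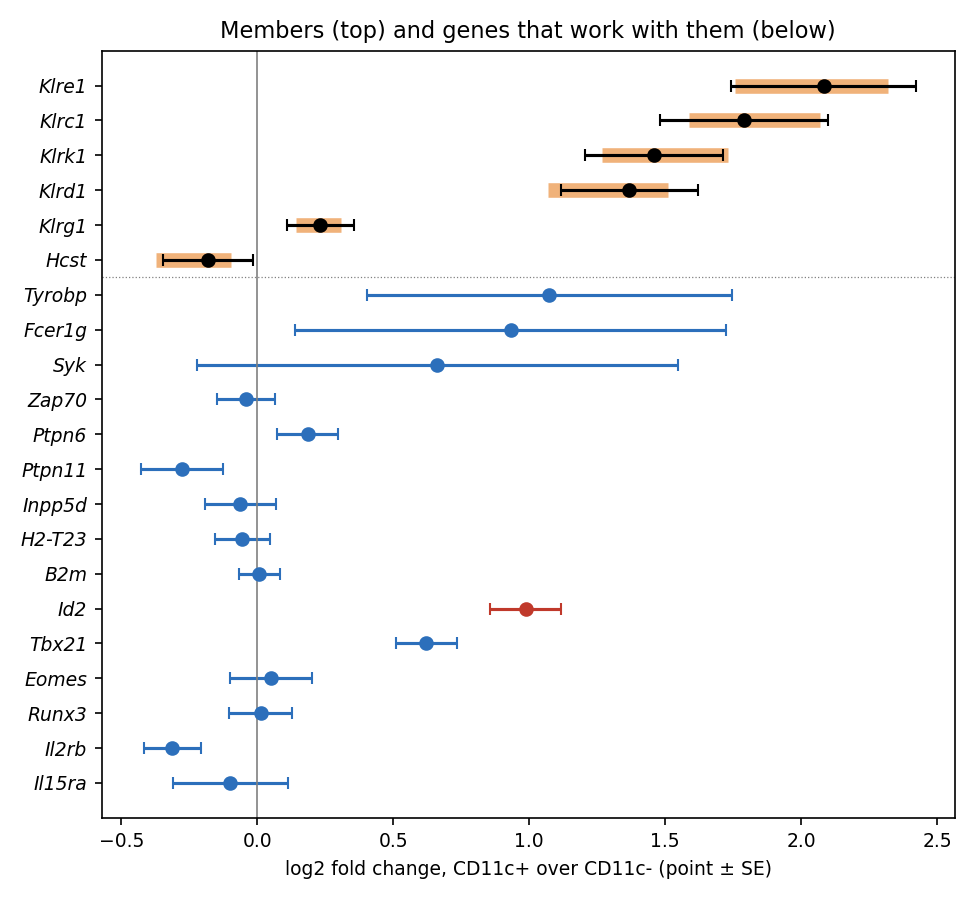
Log2 fold change, CD11c+ over CD11c-, of the 6 members above the filter (top, black) and of genes that work with them (below), each with its SE. Orange bands give the range when each library is left out in turn, and red marks the gene past the adjusted threshold. The members run from 2.08 for Klre1 to -0.18 for Hcst, and Id2 at 0.99 is the red point.

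Since these receptors are known from NK cells, the level of NK and ILC1 markers was set beside them. The summed CPM of 17 such genes was 292, 361, 397 and 299.8 in the CD11c+ libraries, against 288, 316, 286 and 262 in the CD11c- libraries. The groups overlapped, with means of 337 ± 50.5 in CD11c+ and 288 ± 22.2 in CD11c- (SD, n = 4 each; two-sided exact permutation test, p = 0.143, where 0.0286 is the smallest p possible). Without CD11c+ replicate 3 the difference of 49.2 CPM was 29.2 CPM. Of the sum, Eomes, Tyrobp and Fcer1g are also expressed by T cells, and without them the means were 116 ± 35.5 in CD11c+ and 92.5 ± 19.8 in CD11c- (exact permutation test, p = 0.314). Most of the first sum was Eomes, with means of 183 CPM in CD11c+ and 177 CPM in CD11c-. Most of the second was Car2 (47.7 and 46.6 CPM) and Adamts14 (34.0 and 18.5 CPM). Neither test therefore says much about scarcer markers such as Ncr1, Klrb1c, Klra1 and Klra7. Of the 8 markers that passed the filter, 0 were called in edgeR, DESeq2 or voom, with 0 at an unadjusted p under 0.05 in edgeR.

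Of the 17 markers, 13 had a higher mean in CD11c+, 2 a lower mean, and Klra4 and Klra8 had 0 reads in every library. Itga2, which encodes the CD49b of NK cells, was the 1 marker whose groups did not overlap, at 3.14 to 7.63 CPM in the CD11c+ libraries, against 8.63 to 11.7 CPM in the CD11c- libraries (log2 fold change -0.60, edgeR quasi-likelihood, adjusted p = 0.991). Over all tested genes, 1.85% were lower in CD11c+ without overlap, so nothing is read from this 1 marker. Ncr1, which encodes NKp46, had 0, 0, 1.78 and 0.312 CPM in the CD11c+ libraries, against 0, 0, 0.376 and 0 CPM in the CD11c- libraries. Klrb1c, which encodes the NK1.1 of the gate, had 8.99, 0, 0.713 and 3.12 CPM in the CD11c+ libraries, against 0.186, 0.980, 1.69 and 1.41 CPM in the CD11c- libraries. The Ly49 genes Klra7 and Klra1 had higher means in CD11c+ as well. Klra7 averaged 4.46 CPM ± 4.01 in CD11c+ and 1.07 CPM ± 0.457 in CD11c-, and Klra1 averaged 1.93 CPM ± 1.89 in CD11c+ and 0.315 CPM ± 0.325 in CD11c- (SD, n = 4 each). Their groups overlapped. The part of NK and ILC1 transcripts in the levels of the members was not tested.

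**Figure D4:**
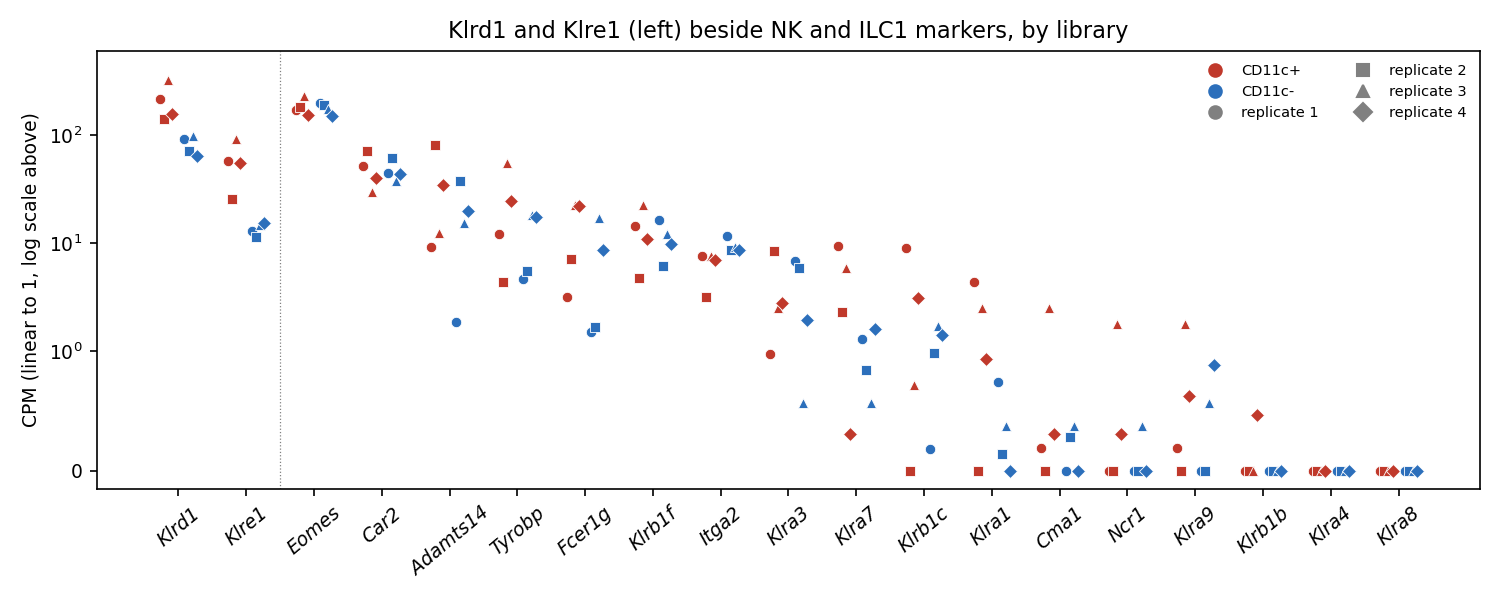
CPM by library, on an axis linear up to 1 and logarithmic above, for Klrd1 and Klre1 (left of the dotted line) and for all 17 NK and ILC1 markers, CD11c+ in red left of CD11c- in blue. The groups of Klrd1 and Klre1 do not overlap and are higher in CD11c+, those of Itga2 do not overlap and are lower in CD11c+, the other markers overlap, and Klra4 and Klra8 sit at 0 in every library.

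Transcripts of myeloid cells varied between libraries and were highest in CD11c+ replicate 3, the library that was also highest for Klrd1, Klrk1, Hcst, Klre1, Klri1, Klri2 and Klrg1. The summed CPM of monocyte and Kupffer cell markers was 29.5, 62.2, 316 and 177 in the CD11c+ libraries, against 90.2, 39.4, 158 and 114 in the CD11c- libraries, and that of neutrophil markers was 34.4, 2.27, 291 and 46.3 in the CD11c+ libraries, against 28.6, 7.56, 119 and 62.7 in the CD11c- libraries. Both sums overlapped between the groups, and 0 of the 4 tested genes of either list were called. The part of these transcripts in the levels of replicate 3 was not tested. Markers of dendritic cells, B cells, hepatocytes and innate-like T cells likewise had 0 called genes, of 1, 2, 2 and 0 tested.

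Within the groups, the members varied together to different degrees. After subtracting each group mean from log2(CPM + 1), Klrd1 had a Pearson r of 0.92 with Hcst, 0.75 with Klre1, 0.68 with Klrg1, 0.56 with Klrk1 and 0.47 with Klrc1 over the 8 libraries. Klrk1 had an r of 0.94 with Klrg1, 0.85 with Klrc1 and 0.71 with Hcst. These values are descriptions over few libraries that share their depth and composition, and CD11c+ replicate 3 is the highest CD11c+ library of all of them except Klrc1. Klrd1 had a lower r with its partner Klrc1 than with Hcst.

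Among 7982 genes of at least 10 CPM, the genes outside the set most like Klrd1 within the groups were 2900056M20Rik and Prrc2b (r = 0.98 each), Rap1b, a small GTPase of integrin activation (0.98), Ms4a4b, a membrane protein of T cells (0.97), the chemokine gene Ccl5 (0.97) and 3110003A17Rik (0.97). None of these was called. Ccl5 averaged 5584 CPM ± 1368 in CD11c+ and 6509.8 CPM ± 948 in CD11c- (SD, n = 4 each), a log2 fold change of -0.22, and the other five had log2 fold changes from 0.08 to 0.30. Most like Klrk1 were Acp5 (0.97), Ms4a4c (0.97) and Cwc25 (0.95), with log2 fold changes of -0.38, 0.42 and -0.24. All these genes were picked for the highest r among the 7982, over 8 libraries. Their r values are therefore a description, high by selection, and were not tested.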

How the data were processed

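Per the labels' protocols, SMART-seq2 in a modified form (preamplification of 10 to 12 cycles) and Nextera XT gave the libraries, sequenced from a single end for 50 bases. Tools named in the submitters' processing notes are bcl2fastq, TopHat2 2.0.8b and HTSeq, with mouse build mm9; the sources used here do not give the annotation or the strand setting. For each library the authors deposited raw counts by gene symbol, not normalized, so a gene cannot be told from an overlapping or antisense one. Of the reads at a unique place, 65.1% ± 1.66 (SD, n = 8) fell in no gene and 0.182% ± 0.0104 were ambiguous, and reads with several alignments were 52.0% ± 1.07 of the sum over rows. These summary rows stayed out of library sizes and tests. Libraries held 5090345 to 7093163 gene reads. No replicate pair was merged as a library deposited again, since each differed by more than read sampling (lowest chi-square per degree of freedom 9.79), which does not show that they came from separate mice.

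Counts were fitted in R 4.3.3 by edgeR 4.0.16 (TMM, filterByExpr, glmQLFit, glmQLFTest), CD11c+ minus CD11c-, over all 10073 tested genes with Benjamini-Hochberg adjustment; the steps were checked on simulated data. SE is the log2 fold change divided by the root of F. Of 179 listed genes that are no members, 172 matched a symbol or an older symbol. Members and lists were chosen with earlier results of these data known. Named from each list were all genes past the threshold and up to 3 further of highest CPM, with the genes most like Klrd1 (6) and Klrk1 (3). Other genes (Itgax, Cd8a, Cd3e, Tyrobp, Fcer1g, Klra1, Klra4, Klra7, Klra8, Klrb1c, Ncr1, Itga2, Tcf7, H2-T23, Sh2d1a, Cd226, Lilrb4, Tbx21, Zeb2, Runx3 and those shown only in a plot) were named after their values were seen. Coordinates and promoters are from RefSeq GRCm38.p6, a build other than that of the counts, and no count was placed by them. The same-numbered libraries correlated in their deviations from the group means at 0.0792, 0.187, 0.128 and 0.192. Differently numbered libraries correlated at -0.132 to 0.0344, lower than any of these. The labels do not say that equal numbers share a mouse, and the main fit did not take the numbers as pairs. The count of members called depends on this choice. Alternatives were a replicate block, no filter, RLE factors, 5 CPM or more in 4 libraries as filter, scaling by library size, leaving out each library in turn, leaving out the 3 libraries in which the fewest genes were detected, DESeq2 1.42.0, limma 3.58.1 voom with quality weights and the edgeR setting legacy=FALSE. Of the 5 genes called, Itgax and Id2 are named here, and the other three are in none of the lists.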

Additional observations from a re-analysis of the deposited data

Results flagged for a closer look

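In 136 sets of 4 libraries, each a gene, ratio or marker sum in a single group, 7 had a library far from the other three by Dixon's test; chance gives about 1 in 20. No member above the filter and no ratio between members was among them. Below the filter, Klri1 and Klri2 had reads in CD11c- replicate 4 and in no other CD11c- library, and are not counted among the 7. Ncr1, also below the filter and with the same kind of pattern in CD11c- replicate 3, is counted. The 7 can therefore not be set strictly against 1 in 20. S100a8 and S100a9, neutrophil genes, stood at 153 and 103 CPM in CD11c+ replicate 3, against at most 23.9 and 13.2 CPM in the other CD11c+ libraries, and this library was also highest for Klrd1, Klrk1 and Klre1. Itgax, the gene of CD11c, measured 357 CPM in CD11c+ replicate 1, against 198 to 212 CPM in the other CD11c+ libraries. Ptpn11 measured 78.4 CPM in CD11c- replicate 1, against 99.6 to 101 CPM in the other CD11c- libraries. Clec2i measured 42.1 CPM in CD11c- replicate 3, against 19.7 to 22.6 CPM in the other CD11c- libraries. Among NK markers, Itga2 measured 3.14 CPM in CD11c+ replicate 2, against 7.01 to 7.63 CPM in the other CD11c+ libraries, and Ncr1 measured 0.376 CPM in CD11c- replicate 3 and 0 CPM in the other CD11c- libraries.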

How the results depend on the processing

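Klrd1, Klrc1, Klrk1, Klre1 and Klrg1 kept a positive log2 fold change under all 17 alternatives. Hcst kept a negative sign except without the 3 libraries in which the fewest genes were detected (CD11c+ replicates 1 and 2, CD11c- replicate 1), where it was 0.0498. The count of members called was 0 with RLE factors or library size only, 4 with no filter, the replicate block, DESeq2, voom, legacy=FALSE or without those 3 libraries, and 1 (Klre1) with at least 5 CPM in 4 libraries. With each library left out in turn it ranged from 0 to 1: it was 1 without CD11c+ replicate 2 (Klre1) or CD11c- replicate 1 (Klrk1). Genes called higher in CD11c+ over all genes numbered 10 with no filter, 6 with at least 5 CPM, 11 with the replicate block, 20 with DESeq2, 14 with voom, 9 with legacy=FALSE and 9 without the 3 libraries, against 3 as reported. Genes called lower numbered 9 with DESeq2 and 5 with voom, against 2. Leaving out each library gave 1 to 4 higher and 0 to 2 lower. Higher calls fell to 1 without CD11c+ replicate 3 or CD11c- replicates 2, 3 or 4, and lower calls to 0 without CD11c+ replicates 1 or 4 or CD11c- replicates 1, 3 or 4, and to 1 without CD11c+ replicates 2 or 3. Listed genes called higher were 3 with DESeq2 and 2 with voom, against 1, and 0 to 1 with each library left out. Fewer samples enter those fits; for the others the cause was not tested. The replicate numbers share only a number by the labels, though every library correlated best with its own number, and with the replicate block the log2 fold changes of Klrd1, Klrc1, Klrk1 and Klre1 were 1.31, 1.85, 1.51 and 1.96. In the block, the exact sign-flip test of the NK marker sum gave p = 0.125, the smallest it can give. The read ratios moved by less than the spread between replicates. With the shortest transcript as length, CPM per kb, an alternative chosen after seeing the data, was higher for Hcst, Klrc1, Klrd1 and Klrk1. Klrc2, Klrc3, Klri1 and Klri2 had at most 24 reads in a group, which limits what their values can show.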
